A study of Mus musculus with 6 samples.

Results

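The guidance genes described here are the ephrins and their Eph receptors, the semaphorins with the plexins and neuropilins, the Slits with the Robos, and the netrins with their receptors. They were found by gene name, and the families were chosen with earlier results of these data known. Of the 38553 gene entries in the table, 71 carried such a name. The 71 entries have 70 names, because *Efna5* was listed under 2 identifiers. RNA-Seq of poly(A) RNA was performed on craniofacial tissue dissected from E12.5 mouse embryos, with 3 control and 3 *Rbfox2* mutant samples. Controls had the genotype Rbfox2 flox/flox and carried no Cre. Mutants had the genotype Pax3Cre/+:Rbfox2 flox/flox, so Cre from the *Pax3* locus removes *Rbfox2*, which encodes a splicing factor, from the Pax3 lineage, mainly neural crest with dorsal neural tube and somites. Because Cre is a knock-in at *Pax3* and controls lacked it, loss of *Rbfox2* and loss of 1 *Pax3* copy cannot be told apart here. The tissue was not sorted, so fewer cells of a type and less RNA per cell cannot be told apart either.

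Guidance cues and their receptors steer growing axons, and the same molecules direct streams of neural crest cells, blood vessels and tissue boundaries in the face. Ephrins are ligands held on the cell surface and act on Eph receptor tyrosine kinases of neighbouring cells, with signals running into both cells. Class 3 semaphorins are secreted, and most bind neuropilins, which signal through A-type plexins. Most other vertebrate semaphorins are membrane bound and bind plexins directly. Slits are secreted ligands of Robo receptors, and netrins are laminin-like cues that attract through Dcc and neogenin and repel through Unc5 receptors.

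Values are FPKM, fragment numbers corrected for gene length and sequencing depth, so levels can be compared between genes, while the number of reads behind each value is unknown. *Rbfox2* itself was at 58.4, 65.0 and 61.3 FPKM in controls 1, 2 and 3 and 38.1, 36.3 and 34.3 in mutants 1, 2 and 3, with no overlap. The difference was -0.75 in log2(FPKM + 1) (SE 0.0791, limma, adjusted p = 0.138). Control 1 and mutant 1 lay away from the remaining samples. On the first principal component of the 10061 genes tested, which held 54.7% of the variance, they lay at -19.1 and -17.0 and the other 4 samples at 7.55 to 11.0. Values within replicate 1 and within replicates 2 and 3 are therefore given for the genes whose difference varied between them. Summed FPKM of 18 neuronal markers was 904 to 955 in controls and 1032 to 1105 in mutants, and 3 of the 15 tested, *Tubb3*, *Dcx* and *Elavl3*, had an unadjusted limma p under 0.05, all higher in mutants, against 1.66% of all genes. With the replicate number as a block in the fit, 8 of the 15 did, 7 higher and *Prph* lower in mutants, against 6.0% of all genes. None of the 18 was at 0. Over all samples, the sums of the other 10 lists of cell type markers overlapped between the groups. Among them was facial mesenchyme at 524 to 578 in controls and 474 to 578 in mutants. Within replicates 2 and 3, the sums of both mutants were below those of both controls for facial mesenchyme, epithelium and skeletal muscle. Facial mesenchyme was at 578.1 and 546.1 in controls 2 and 3 and 474.3 and 534.7 in mutants 2 and 3. In the fits over all samples, none of its 12 markers had an unadjusted limma p under 0.05, with or without the block. Both mutants were above both controls for choroid plexus and erythroid markers, and the remaining of the 10 lists overlapped. Of 4 tested skeletal muscle markers all 4 had differences below 0, and 3 had an unadjusted p under 0.05 with the block, with summed FPKM of 116.8, 266.1 and 165.0 in controls 1 to 3 and 114.3, 157.9 and 118.9 in mutants 1 to 3. Of 9 epithelial markers 2 did with the block, *Krt5* and *Krt14*, both lower in mutants. Many guidance genes are also used by neurons, and the part of these marker differences in the values below was not tested. Y-linked genes were expressed in mutants 1 and 2 only, with a summed FPKM of 57.7 and 55.5 against at most 0.217 in the other samples. Mutants 1 and 2 therefore held male tissue and no control did, so sex and genotype are partly confounded. The members *Efnb1*, *Plxna3* and *Plxnb3* are X-linked.

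Most guidance genes were expressed in this tissue, and none differed between the genotypes beyond the adjusted threshold. Mean FPKM over the 6 samples was above 1 for 66 of the 71 entries, above 10 for 36 and above 30 for 12. The highest was *Plxnb2*, which encodes a receptor of class 4 semaphorins, at 79.6, 80.9 and 78.4 in controls 1 to 3 and 74.0, 80.7 and 77.8 in mutants 1 to 3. It was followed by the ephrin-B ligand *Efnb1* at 62.8, 56.2 and 63.1 in controls 1 to 3 and 63.0, 65.5 and 64.0 in mutants 1 to 3. The receptor *Ephb4* was at 49.0, 62.7 and 59.2 in controls 1 to 3 and 57.1, 56.1 and 56.6 in mutants 1 to 3. *Plxnb2* stood above every sample of *Efnb1*, while the ranges of *Efnb1* and *Ephb4* overlapped. The next were *Efnb3* with a mean of 47.7, then *Efnb2* at 39.1, *Robo1* at 39.0, *Nrp2* at 38.9 and *Ephb2* at 37.6, and the last 4 of these overlapped in their samples. *Ephb3* at 34.3, *Neo1* at 33.3, *Plxna1* at 31.3 and *Efna4* at 30.1 completed the 12. At the low end, 5 entries had a mean under 1, namely *Sema3e*, *Epha10*, *Epha6*, *Ntn5* and *Plxnb3*, and no entry was listed at 0 in any sample.

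**Figure D1:**
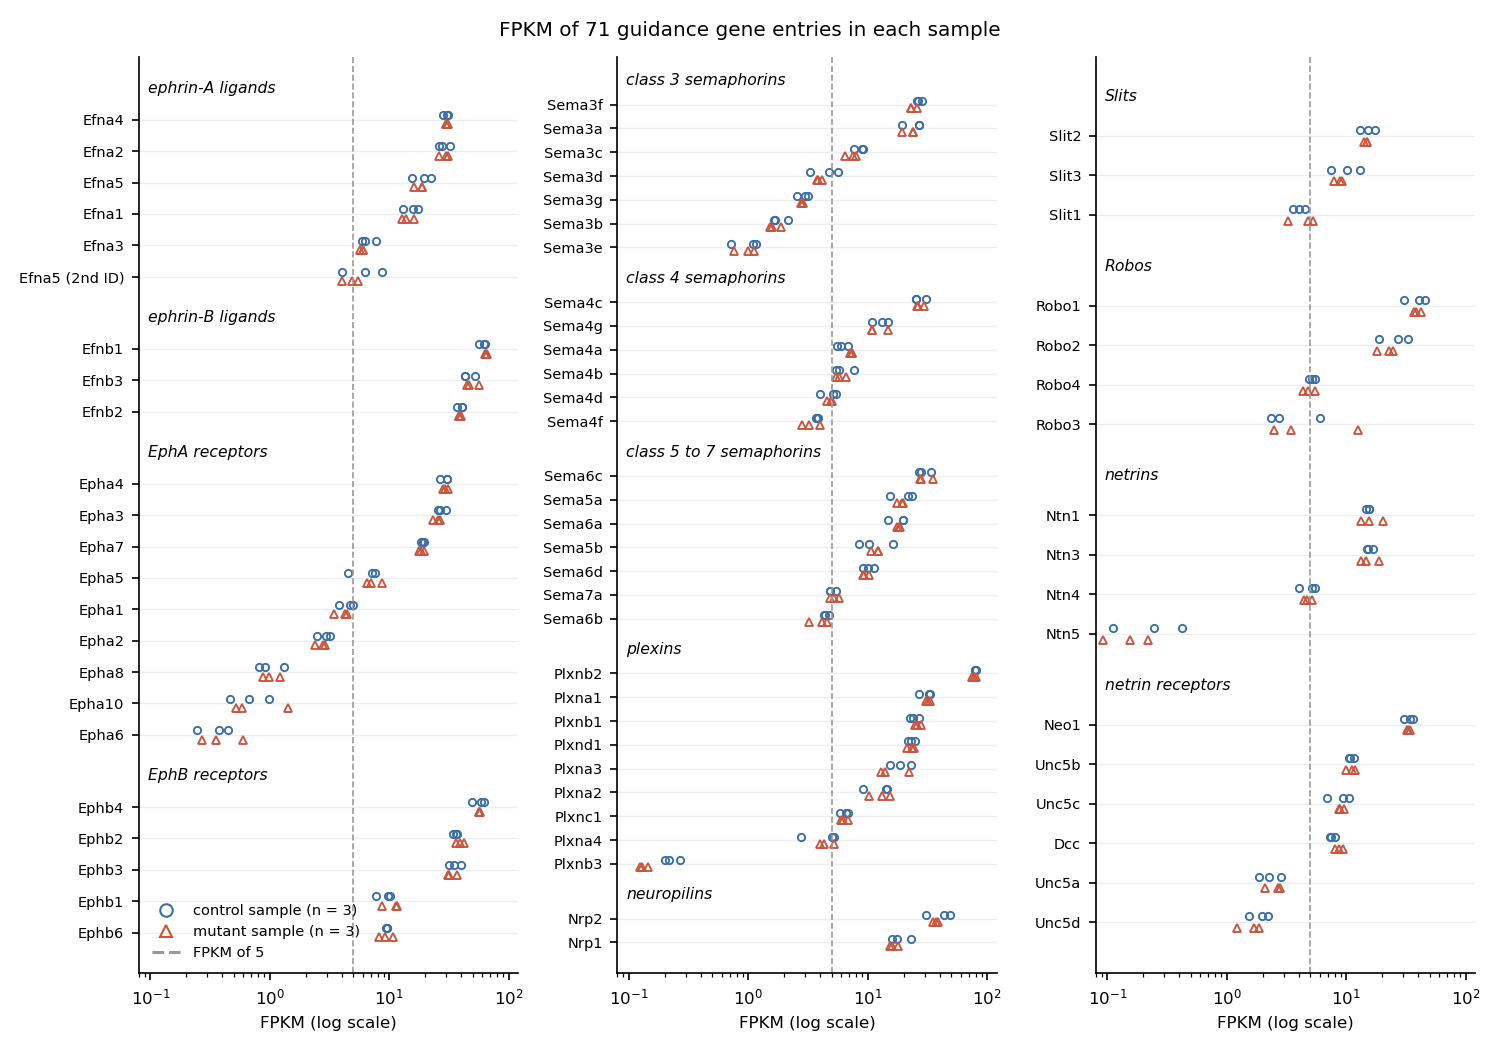
FPKM on a log axis of all 71 guidance gene entries, grouped by role, with 1 circle for each control and 1 triangle for each mutant sample; the dashed line marks an FPKM of 5. The ranges of circles and triangles overlap for every entry except *Sema4a* and *Plxnb3*, and the levels run from *Plxnb3*, with a mean of 0.181, to *Plxnb2*, with a mean of 78.6.

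For the comparison of genotypes, genes with an FPKM over 5 in all controls or in all mutants were tested with limma on log2(FPKM + 1), which left 48 guidance genes among 10061 genes. Of these, 47 passed the filter in both groups and *Epha5* passed through the mutants only. The other 23 entries, with means from 0.181 to 5.56, were not tested. No guidance gene passed an adjusted p of 0.05 in limma, and 0.0% of all genes did, and the smallest adjusted p of a guidance gene was 1.0. An unadjusted p under 0.05 was found for 1 of the 48, *Sema4a*, against 1.66% of all genes tested. *Sema4a* was also the only one of the 48 with all mutant values on one side of all control values, a separation seen in 5.0% of all genes. The 48 differences of mutant minus control ranged from -0.23 to 0.23 in log2(FPKM + 1), with 21 above and 27 below 0, a median of -0.01 and a median size of 0.073. Over all genes the median was 0.01 and the median size 0.054. The 95% limma intervals of all 48 lay within a change of 1 on the log2 scale, where 98.7% of all genes did. Those of 40, or 83.3%, lay within 0.5, against 85.8% of all genes. The outermost bounds were -0.75 for *Plxna3* and 0.62 for *Epha5*, so for those genes differences of such a size remained inside the interval.

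**Figure D2:**
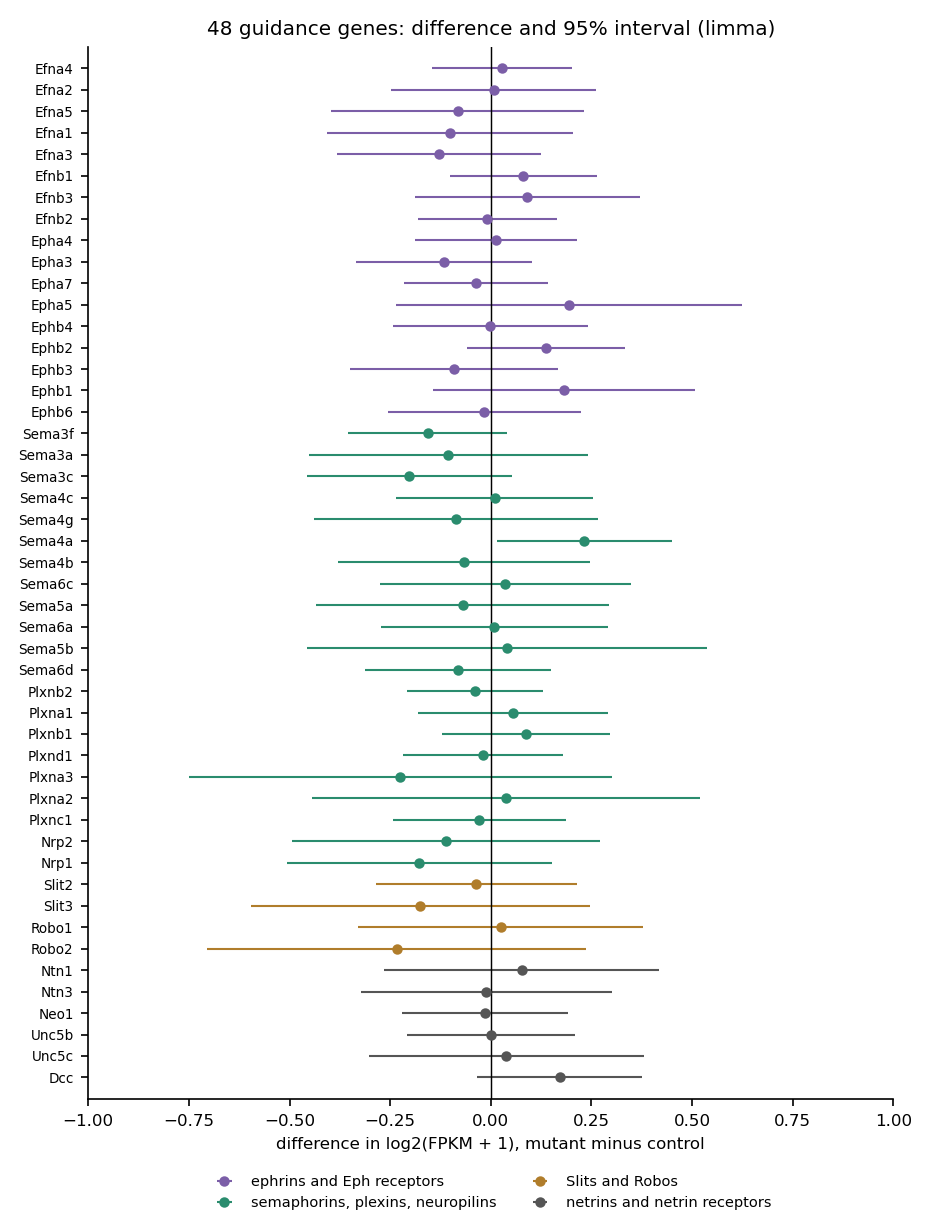
Difference of mutant minus control in log2(FPKM + 1) for the 48 tested guidance genes, with 95% intervals from limma (n = 3 and 3), coloured by family. The points lie between -0.23 and 0.23, and only the interval of *Sema4a* leaves out 0.

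The replicate numbers were taken to pair the samples, as set out under the processing, although the labels name no shared litter. The correlations set replicate 1 apart but do not separate replicates 2 and 3. Control 3 with mutant 2 gave 0.401, against 0.258 for control 2 with mutant 2. Blocking on replicate number gave an unadjusted limma p under 0.05 for 4 of the 48 guidance genes, or 8.33%, against 6.0% of all genes. These were *Sema4a*, higher in mutants, and *Sema3c*, *Plxna3* and *Robo2*, lower in mutants. The smallest adjusted limma p with the block was 0.809. With a term for replicate 1 in place of the block, *Sema4a*, *Sema3c* and *Robo2* kept an unadjusted limma p under 0.05 and *Plxna3* did not. Mutant minus control had 1 sign in all 3 replicate numbers for 17 of the 48, or 35.4%, against 26.8% of all genes, with 6 higher and 11 lower in mutants.

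Among the Eph family, all 3 ephrin-B ligands had means above 30 FPKM. *Efnb1*, an X-linked ligand whose loss causes facial clefting and craniofrontonasal defects, was at 60.7 ± 3.89 for controls and 64.2 ± 1.26 for mutants (SD, n = 3), a difference of 0.08 (interval -0.10 to 0.26). Of the ephrin-A ligands, which are tethered by a lipid anchor, *Efna4* was highest at 28.0, 30.5 and 31.0 in controls 1 to 3 and 29.9, 30.2 and 31.1 in mutants 1 to 3. *Efna3* was at 7.72, 6.25 and 5.90 in controls 1 to 3 and 6.08, 6.04 and 5.69 in mutants 1 to 3, with a difference of -0.13 and control 1 above the other 5 samples. The groups overlapped in each of these genes. *Efna2*, *Efna5* and *Efna1* had means of 28.8, 18.5 and 14.8. The difference of *Efna5* was 0.24 for replicate 1 and -0.25 for replicates 2 and 3 (SE 0.0994, limma, adjusted p = 0.449). The second identifier of *Efna5*, not in the annotation used here, had a mean of 5.56 and was not tested. The step that divided reads between both *Efna5* entries is not described, so their values are uncertain.

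The EphA receptors had 3 members with means above 10, *Epha4*, *Epha3* and *Epha7*. *Epha4* was at 26.6, 30.8 and 30.7 in controls 1 to 3 and 28.4, 29.6 and 30.8 in mutants 1 to 3. *Epha3* was at 25.4, 26.8 and 30.1 in controls 1 to 3 and 23.4, 26.7 and 25.5 in mutants 1 to 3. Their differences were 0.01 and -0.12, within the spread of the samples. *Epha5* was at 7.55, 4.56 and 7.14 in controls 1 to 3 and 6.99, 8.66 and 6.51 in mutants 1 to 3, a difference of 0.19 with an interval of -0.24 to 0.62. Only control 2 was below 5, and this gene entered the test through its mutant values. Without control 2 the difference was -0.00049, and without mutant 2 it was 0.09. It was -0.10 for replicate 1 and 0.34 for replicates 2 and 3. *Epha1*, *Epha2*, *Epha8*, *Epha10* and *Epha6* had means from 0.382 to 4.27 and were not tested.

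All 5 EphB genes were tested. *Ephb4*, the receptor that with *Efnb2* separates veins from arteries, was 57.0 ± 7.15 for controls and 56.6 ± 0.492 for mutants (SD, n = 3), a difference of -0.0015. The difference was 0.22 for replicate 1 and -0.11 for replicates 2 and 3. *Ephb4* overlaps *Zan*, a gene on the other strand. In all, 31 of the 71 entries overlap annotated genes of the other strand, and 21 of these were tested. Besides *Ephb4* these 21 are *Epha5*, *Epha7*, *Ephb1*, *Robo1*, *Robo2*, *Slit2*, *Slit3*, *Sema3a*, *Sema4c*, *Sema5a*, *Sema5b*, *Sema6d*, *Plxna1*, *Plxnb1*, *Efna4*, *Efna3*, *Neo1*, *Ntn1*, *Unc5c* and *Nrp2*. The libraries were stranded, but the sources used here do not say whether the gene values took strand into account, so these values are uncertain to that extent. *Ephb2*, which acts together with *Ephb3* in the closing of the palate, was at 36.2, 34.0 and 36.9 in controls 1 to 3 and 36.4, 42.4 and 39.4 in mutants 1 to 3. Its difference of 0.14 had an interval of -0.06 to 0.33, and only mutant 1, at 36.4, lay inside the range of the controls. It was 0.20 for replicates 2 and 3 (SE 0.0744, limma, adjusted p = 0.432). *Ephb3*, with a mean of 34.3, differed by 0.21 for replicate 1 and by -0.24 for replicates 2 and 3 (SE 0.0793, limma, adjusted p = 0.412). *Ephb1* and *Ephb6*, the latter a receptor with an inactive kinase domain, had means of 9.92 and 9.44.

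Among the semaphorins, *Sema4a* was higher in all 3 mutants than in all 3 controls. *Sema4a* (ENSMUSG00000028064, chr3:88435959-88461182, minus strand, GRCm38), a membrane-bound class 4 semaphorin that binds plexins and is required in the retina, was at 6.80, 6.001 and 5.49 in controls 1 to 3 and 7.36, 7.42 and 7.17 in mutants 1 to 3. Every mutant was above every control, by a narrow margin between control 1 and mutant 3. The means were 6.10 ± 0.660 for controls and 7.31 ± 0.131 for mutants (SD, n = 3), and the difference was 0.23 (SE 0.0922, interval 0.01 to 0.45, limma, adjusted p = 1.0), with an unadjusted p under 0.05. The exact two-sided permutation p was 0.10, the smallest that 3 against 3 samples can give. The difference was 0.10 for replicate 1 and 0.30 for replicates 2 and 3 (SE 0.0917, limma, adjusted p = 0.404). Its level is close to the filter of 5 FPKM, and the unadjusted p was 0.05 or more in 5 of the 6 fits that each left out 1 sample, all but the one without control 1. The same held with median ratio scaling, with no filter and with Y-linked expression as a covariate. The other class 4 genes in the test were *Sema4c* at 30.8, 25.4 and 25.3 in controls 1 to 3 and 29.5, 25.7 and 26.6 in mutants 1 to 3, *Sema4g* with a mean of 12.53 and *Sema4b* with a mean of 6.09. *Sema4d* and *Sema4f*, at 4.83 and 3.55, were not tested.

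**Figure D3:**
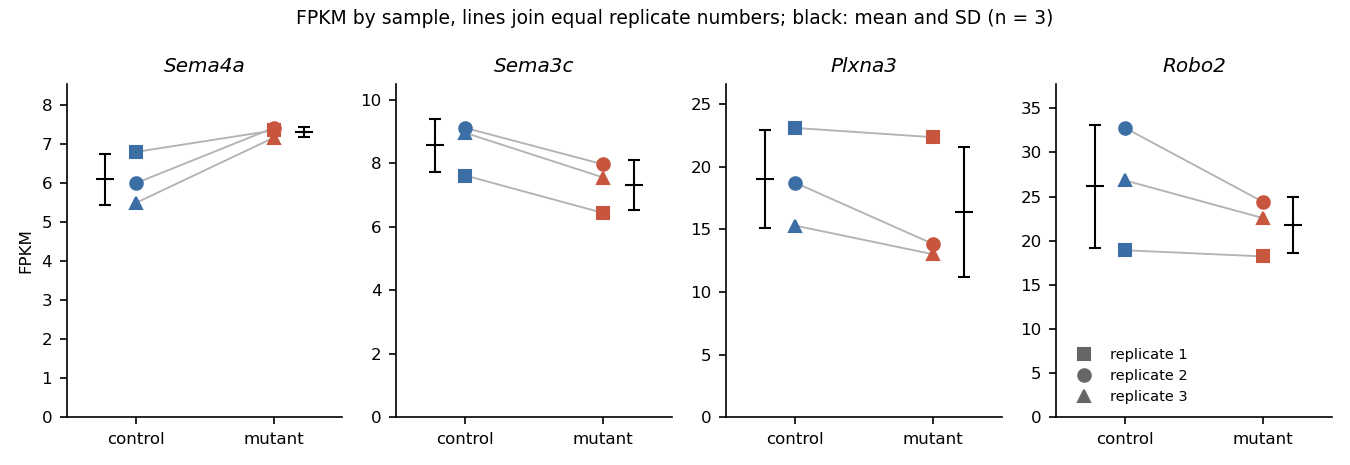
FPKM in each sample of *Sema4a*, *Sema3c*, *Plxna3* and *Robo2*, the genes with an unadjusted p under 0.05 in the fit with the replicate block; grey lines join samples with the same replicate number and black bars give the mean and SD (n = 3). In *Plxna3* and *Robo2* the first replicates (squares) of both genotypes lie together, away from the other samples.

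All 3 class 3 semaphorins that were tested had lower means in mutants, and none passed the unadjusted threshold in the fit without a block. *Sema3c* (ENSMUSG00000028780), a secreted cue that acts on cardiac neural crest, was at 7.61, 9.11 and 8.95 in controls 1 to 3 and 6.43, 7.96 and 7.55 in mutants 1 to 3, a difference of -0.20 with an interval of -0.46 to 0.05. The groups overlapped, but the mutant was lower in each replicate number, with differences of -0.21, -0.17 and -0.22 in log2(FPKM + 1). With the block its unadjusted p was under 0.05 (SE 0.0684, limma, adjusted p = 0.809), and so it was with a term for replicate 1 and without control 1. *Sema3f* was at 26.2, 28.5 and 25.8 in controls 1 to 3 and 26.0, 23.1 and 22.9 in mutants 1 to 3, a difference of -0.16, which was -0.01 for replicate 1 and -0.23 for replicates 2 and 3 (SE 0.0744, limma, adjusted p = 0.410). *Sema3a*, the collapsing factor for sensory growth cones, had a mean of 23.3 and a difference of -0.11. It was -0.01 for replicate 1 and -0.15 for replicates 2 and 3 (SE 0.0636, limma, adjusted p = 0.454). *Sema3d*, *Sema3g*, *Sema3b* and *Sema3e*, with means from 0.9746 to 4.24, were not tested.

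The 5 tested transmembrane semaphorins of classes 5 and 6 had differences from -0.08 to 0.04. *Sema6c* was at 33.7, 26.7 and 27.7 in controls 1 to 3 and 35.4, 27.4 and 27.7 in mutants 1 to 3, with both first replicates above the other samples. *Sema6d*, a ligand of *Plxna1* with roles in the heart, was at 9.17, 11.4 and 10.1 in controls 1 to 3 and 9.29, 10.3 and 9.20 in mutants 1 to 3, a difference of -0.08 with overlap. *Sema5a*, *Sema6a* and *Sema5b* had means of 19.5, 18.1 and 11.7. *Sema5a* differed by 0.20 for replicate 1 and by -0.21 for replicates 2 and 3 (SE 0.0732, limma, adjusted p = 0.426). *Sema5b*, named after its values were seen, at 16.3, 8.49 and 10.2 in controls 1 to 3 and 12.2, 12.2 and 10.6 in mutants 1 to 3, had the largest ratio between the highest and lowest sample of the 48, 1.93, between 2 controls. The difference of *Sema5b* was -0.39 for replicate 1 and 0.26 for replicates 2 and 3. *Sema7a* and *Sema6b*, at 5.15 and 4.23, were not tested.

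Of the semaphorin receptors, both neuropilins had lower means in mutants, and neither passed the unadjusted threshold in the fit over all samples, with or without the block. *Nrp2* was at 30.6, 48.6 and 43.1 in controls 1 to 3 and 34.9, 38.7 and 37.4 in mutants 1 to 3, a difference of -0.11. It was 0.18 for replicate 1 and -0.26 for replicates 2 and 3 (SE 0.0776, limma, adjusted p = 0.404). *Nrp1*, which is also a receptor of Vegfa, was at 16.0, 23.2 and 17.6 in controls 1 to 3 and 15.9, 17.96 and 15.5 in mutants 1 to 3, a difference of -0.18 with an interval of -0.51 to 0.15, which was -0.01 for replicate 1 and -0.26 for replicates 2 and 3. The groups overlapped in both genes. Without control 2, the highest sample of both, the difference of *Nrp2* was 0.03 and that of *Nrp1* -0.03. Without control 1 they were -0.30, with an unadjusted p under 0.05, and -0.28. *Plxna3* (ENSMUSG00000031398, chrX:74329066-74344689, plus strand, GRCm38), the co-receptor through which *Nrp2* passes on *Sema3f* signals, was at 23.1, 18.7 and 15.3 in controls 1 to 3 and 22.3, 13.8 and 13.0 in mutants 1 to 3. Its difference of -0.22 was -0.05 for replicate 1 and -0.31 for replicates 2 and 3 (SE 0.106, limma, adjusted p = 0.415). Leaving out 1 sample moved it from -0.08 without control 1 and -0.09 without mutant 3 to -0.46 without mutant 1, where its unadjusted p was under 0.05. It was -0.13 without mutant 2 and -0.36 without control 3. With Y-linked expression as a covariate the difference of this X-linked gene was -0.51 (SE 0.305, limma), and its unadjusted p was over 0.05. *Plxna1*, *Plxnb1*, *Plxnd1*, *Plxna2* and *Plxnc1*, with means from 6.38 to 31.3, had differences from -0.03 to 0.09. *Plxna4*, with a mean of 4.41, was not tested. *Plxnb3* was at 0.219, 0.266 and 0.202 in controls 1 to 3 and 0.124, 0.129 and 0.146 in mutants 1 to 3 and, named here after its values were seen, was the only untested entry whose groups did not overlap, at a level far below the filter. In the fit with no filter it was the only guidance gene with an unadjusted limma p under 0.05, against 2.87% of all genes.

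Among the Robo receptors and Slit ligands, *Robo2* had the most negative difference of the 48. *Robo2* (ENSMUSG00000052516, chr16:73891839-74411825, minus strand, GRCm38) was at 18.9, 32.8 and 26.8 in controls 1 to 3 and 18.2, 24.4 and 22.6 in mutants 1 to 3, means of 26.2 ± 6.95 for controls and 21.7 ± 3.17 for mutants (SD, n = 3). The difference was -0.23 (SE 0.200, interval -0.71 to 0.24, limma). Without control 2, its highest sample, it was -0.06, without mutant 1 -0.12, and without control 1 it was -0.44 with an unadjusted p under 0.05. It was -0.05 for replicate 1 and -0.33 for replicates 2 and 3 (SE 0.105, limma, adjusted p = 0.410), and both first replicates lay below the other 4 samples. *Robo1*, the more abundant receptor, was at 30.3, 45.8 and 40.6 in controls 1 to 3 and 37.1, 38.04 and 42.1 in mutants 1 to 3, a difference of 0.02, which was 0.29 for replicate 1 and -0.11 for replicates 2 and 3. *Slit3*, a ligand of both, was at 7.40, 13.0 and 10.1 in controls 1 to 3 and 9.21, 8.87 and 7.93 in mutants 1 to 3. Control 2 was the highest and control 1 the lowest of its samples, and the difference was -0.18 over all samples, 0.28 for replicate 1 and -0.40 for replicates 2 and 3 (SE 0.128, limma, adjusted p = 0.407). Without control 2 it was 0.0028, and without control 1 it was -0.36 with an unadjusted p under 0.05. *Slit2* was at 13.1, 17.2 and 15.1 in controls 1 to 3 and 14.997, 14.9 and 14.1 in mutants 1 to 3, a difference of -0.04 well inside the control range. The difference of *Slit2* was 0.18 for replicate 1 and -0.14 for replicates 2 and 3. *Slit1* and the endothelial receptor *Robo4*, at 4.22 and 5.01, were not tested. *Robo3*, named after its values were seen, was at 6.01, 2.75 and 2.32 in controls 1 to 3 and 12.51, 2.46 and 3.47 in mutants 1 to 3, with both first replicates above the other 4 samples. It guides commissural axons of the hindbrain and spinal cord, and it was not tested.

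The 6 tested netrins and netrin receptors had differences from -0.01 to 0.17, none past the unadjusted threshold in the fit with no further term. *Ntn1* was at 15.6, 15.3 and 14.6 in controls 1 to 3 and 20.3, 15.4 and 13.2 in mutants 1 to 3, with mutant 1 above the other 5 samples and a difference of 0.08, which was 0.36 for replicate 1 and -0.06 for replicates 2 and 3. *Neo1*, encoding neogenin, a receptor of netrins and of repulsive guidance molecules, was at 30.1, 36.2 and 34.4 in controls 1 to 3 and 32.8, 32.5 and 34.1 in mutants 1 to 3, a difference of -0.01 (interval -0.22 to 0.19). *Dcc*, the attractive netrin receptor of commissural axons, was at 7.25, 7.47 and 8.09 in controls 1 to 3 and 8.06, 9.32 and 8.69 in mutants 1 to 3. Control 3 and mutant 1 overlapped narrowly, and the difference was 0.17 (SE 0.0867, interval -0.03 to 0.38). With a term for replicate 1 its unadjusted p was under 0.05 (SE 0.0691, limma, adjusted p = 0.801), and with median ratio scaling its groups did not overlap. *Ntn3*, *Unc5b* and *Unc5c* had means of 15.6, 11.0 and 8.98 and differences of -0.01, 0.00 and 0.04. The difference of *Unc5c* was 0.43 for replicate 1 and -0.16 for replicates 2 and 3. *Ntn4*, *Ntn5*, *Unc5a* and *Unc5d*, with means from 0.207 to 4.83, were not tested.

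The direction of the differences depended on the set of samples. In the first replicates the mutant was lower for 17 of the 48 guidance genes, or 35.4%, and for replicates 2 and 3 together it was lower for 35, or 72.9%. The corresponding shares of all genes were 54.6% and 45.7%. For 23 genes, or 47.9%, the mutant was higher in the first replicates and lower in replicates 2 and 3, against 23.5% of all genes. For 5, or 10.4%, it was the reverse, against 32.4% of all genes. Among the 23 were *Slit3*, *Efna5*, *Nrp2*, *Unc5c*, *Robo1* and *Ntn1*, and among the 5 were *Sema5b* and *Epha5*. The median difference was 0.068 for replicate 1 and -0.064 for the others, against -0.014 and 0.013 over all genes. With replicates 2 and 3 alone, 11 of the 48 had an unadjusted limma p under 0.05, or 22.9%, against 11.0% of all genes. The 9 lower in mutants were *Nrp2*, *Slit3*, *Robo2*, *Sema3f*, *Ephb3*, *Plxna3*, *Sema5a*, *Efna5* and *Sema3a*, and the 2 higher were *Sema4a* and *Ephb2*. Both mutants were below both controls for 19 of the 48, or 39.6%, against 19.9% of all genes, and above them for 8, or 16.7%, against 25.0%. The smallest adjusted p of a guidance gene in that fit was 0.404. The fit held 2 samples per group, taken because replicate 1 lay apart on the first principal component of these data. Over all samples, 1 of the 48 and 1.66% of all genes had an unadjusted limma p under 0.05. The genes share these libraries and are not independent. Samples of the first replicates are 1 of each genotype, so a difference between the sets was not tested.

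**Figure D4:**
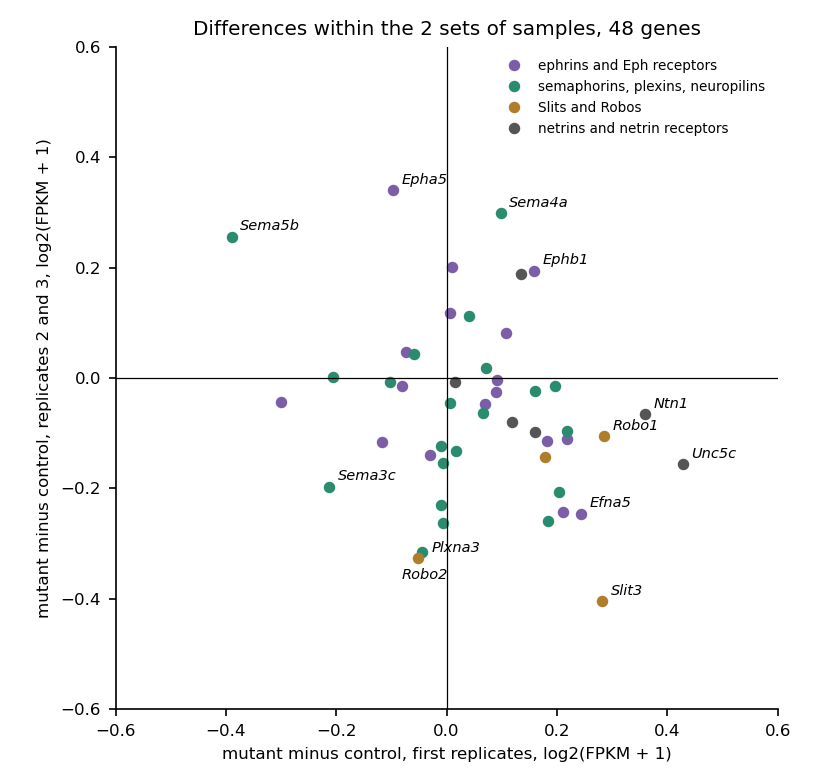
Difference of mutant minus control in log2(FPKM + 1) within the first replicates (horizontal, 1 sample of each genotype) and within replicates 2 and 3 (vertical, mean of 2 pairs) for the 48 tested guidance genes. The lower right panel, higher in the first mutant and lower in the other 2, holds 23 of the 48 points, and *Sema4a* lies above 0 on both axes.

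Apart from genotype, the first replicates differed from the other samples over the whole table, and guidance genes shared this. Both first replicates lay on 1 side of the other 4 samples for 25 of the 48 guidance genes and 5341 of the 10061 genes tested. Both first replicates were below the other 4 samples for 13 of the 48 genes, or 27.1%, against 34.7% of all genes, and above them for 12, or 25.0%, against 18.4%. The size of this difference exceeded that of the genotype difference in 40 of the 48, or 83.3%, against 77.5% of all genes. It ranged from -0.52 in *Plxna2* to 0.56 in *Plxna3*, which encode 2 closely related plexins. *Plxna2*, named after its values were seen, was at 9.07, 14.3 and 14.6 in controls 1 to 3 and 10.3, 15.3 and 13.1 in mutants 1 to 3, so its first replicates were lowest, while those of *Plxna3* were highest. The direction differed with the base composition of the transcripts. Sums of cell type markers also differed on this comparison. Erythroid markers were at 1531 and 1437 in the first replicates and 698.5 to 1114 in the other 4 samples. Sums of skeletal muscle, epithelial, endothelial and macrophage markers were lower in both first replicates than in the others, and the remaining lists did neither. The cause was not tested. Across 47 guidance genes with an annotated transcript, first replicates minus the others had a Spearman correlation of 0.60 with the share of G and C. Across 9771 genes it was 0.13. With transcript length the correlation was -0.33 across the guidance genes and 0.0049 across all genes. These are correlations across genes, which share the 6 libraries and are not independent. Of 18 guidance transcripts with under 50% G and C, 16 were lower in the first replicates, or 88.9%, against 63.2% of all genes in that class, with a median of -0.15. Of 24 with 55% or more, 17 were higher, or 70.8%, against 53.4% of all genes, with a median of 0.12. The 5 between these classes had a median of -0.19. Over all genes the medians in the 3 classes were -0.08 under 50%, -0.09 in between and 0.02 at 55% or more. Among the low ones were *Robo2* at -0.48, *Sema3a* at -0.37 and *Nrp2* at -0.34, and among the high ones *Sema5b* at 0.42, *Sema4g* at 0.34 and *Sema6c* at 0.32.

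**Figure D5:**
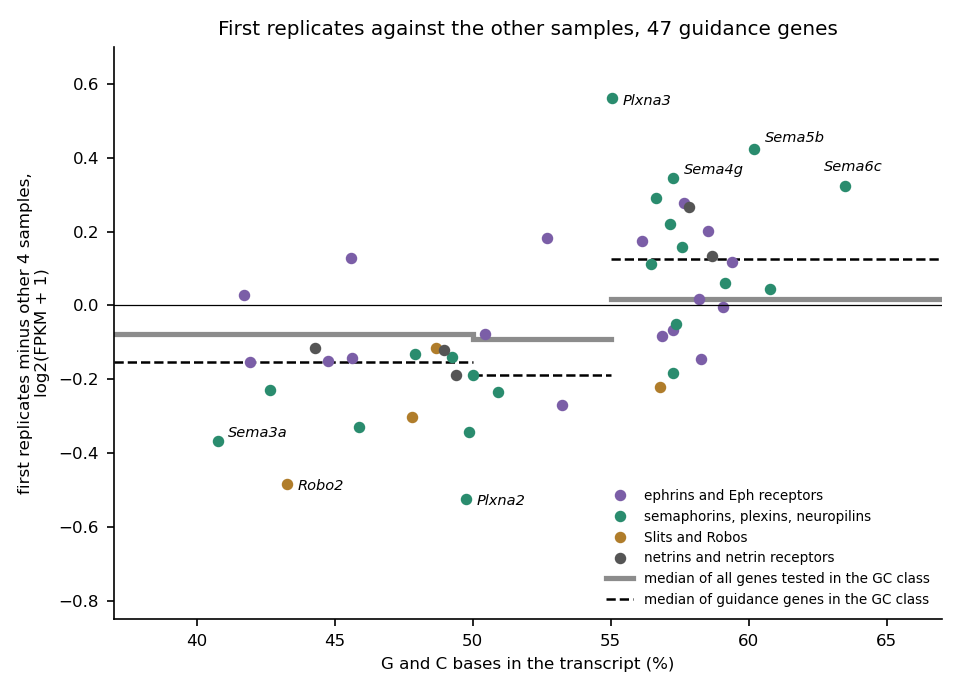
Mean of the 2 first replicates minus the mean of the other 4 samples in log2(FPKM + 1) against the percentage of G and C bases in the transcript, for 47 tested guidance genes; horizontal lines give medians by class of G and C content for guidance genes (dashed) and for all genes tested (grey). Most points under 50% lie below 0 and most at 55% or more lie above it.

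Rbfox2 binds RNA at the hexamer UGCAUG, which was looked for as TGCATG, on the sense strand, in the 3′ untranslated part of 1 transcript per gene, the one with the longest coding sequence. It occurred at least once in 12 of 47 tested guidance genes, or 25.5%, and in 31.8% of 9771 tested genes. Guidance transcripts had the longer 3′ parts, with a median of 1464 bases against 965. In the last 1000 bases of those at least that long, 6 of 31 held it, or 19.4%, against 28.0% of all genes. The median genotype difference of the 12 genes with the hexamer was -0.05 and that of the 35 without it -0.01, against 0.0039 and 0.0065 over all genes. Within replicates 2 and 3 the medians of the guidance genes were -0.07 with the hexamer and -0.06 without it. Introns, where Rbfox2 sites that act on splicing mostly lie, were not searched. The genes lower in mutants in the fit with the replicate block, *Plxna3*, *Robo2* and *Sema3c*, had 2, 1 and 0 hexamers. The sites of *Sema3a*, which had 5, and of *Plxna3* are shown with 10 bases on either side. They run 5′ to 3′ on the strand of the gene in GRCm38, with the hexamer in capitals.
Sema3a site 1, chr5:13599953-13599978, plus strand: gaaaataaacTGCATGgatttagtaa
Sema3a site 2, chr5:13600655-13600680, plus strand: cttgaatattTGCATGatgtgtgagg
Sema3a site 3, chr5:13601984-13602009, plus strand: ctttggcataTGCATGtatcatcaca
Sema3a site 4, chr5:13602020-13602045, plus strand: gcctaagagaTGCATGtgaccttaag
Sema3a site 5, chr5:13602132-13602157, plus strand: aaagtgtaaaTGCATGcaaatgcaca
Plxna3 site 1, chrX:74344431-74344456, plus strand: ctccttctgtTGCATGagtttttctt
Plxna3 site 2, chrX:74344493-74344518, plus strand: atggggtcagTGCATGtctttgtctt
The hexamers of *Sema3a* were spread over its 3′ part, with sites 1 and 2 at 360 and 1062 bases after the stop codon and sites 3 to 5 at 2391, 2427 and 2539 of 2962 bases. A match describes these letters only and does not show binding.

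The wider guidance pathway was taken from 2 further lists. Of 33 genes for GEFs, GAPs, adaptors and kinases downstream of guidance receptors, such as *Rac1*, *Rhoa*, *Fyn* and *Srgap1*, 28 entries were tested and none had an unadjusted limma p under 0.05, against 1.66% of all genes, with 14 above and 14 below 0. With the replicate block 1 did, against 6.0% of all genes, an entry of *Mical3*, a member of the Mical family of actin-modifying enzymes that act downstream of plexins. That name is on 2 entries, and this one was at 6.11, 9.96 and 10.5 in controls 1 to 3 and 5.98, 7.20 and 7.12 in mutants 1 to 3. Of 24 co-receptors and other cues, 16 entries were tested and 1 had an unadjusted limma p under 0.05, and with the block 2 had, against the same shares of all genes. This was *Vegfa*, the vascular growth factor that shares *Nrp1* with class 3 semaphorins, at 33.5, 27.4 and 25.3 in controls 1 to 3 and 27.0, 16.0 and 19.6 in mutants 1 to 3. The difference was -0.46 (SE 0.19, limma, adjusted p = 1.0), and control 3 was below mutant 1. With the block *Rgmb*, a ligand of neogenin, also had an unadjusted p under 0.05, at 26.0, 18.3 and 17.3 in controls 1 to 3 and 28.5, 21.7 and 21.5 in mutants 1 to 3, a difference of 0.22.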

How the data were processed

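Poly(A) RNA from craniofacial tissue of 3 control and 3 mutant embryo samples, given as independent biological replicates, was sequenced from stranded libraries with paired-end reads. The deposited values are FPKM per gene and sample. The authors aligned reads with STAR to GRCm38; the submitters' processing notes also name FastQC (0.11.4) and Cuffdiff. The step and annotation that gave the gene table are not given in the sources used here. FPKM summed to 528123 to 590174 per sample over 38553 genes; the reads behind a value are unknown, so no counting interval is given. The single-sample tables and the combined table differed in 0 values.

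Members were found by gene symbol. The members, gene lists and rules were chosen with earlier results of these data known. Genes with an FPKM over 5 in all samples of a group were tested with limma (3.58.1, R 4.3.3) on log2(FPKM + 1) with an intensity trend, no covariate and Benjamini-Hochberg adjustment over all genes tested; differences on that scale understate changes of low genes. The fit was tested on simulated data. With 3 against 3 samples an exact two-sided permutation test cannot go below 0.10. With each gene centred on the mean of its group, the control and mutant of replicate 1 correlated across genes at 0.644, those of replicate 2 at 0.258 and those of replicate 3 at 0.513, all over 0.1, so the numbers were taken to pair the samples; the labels name no shared litter. Control 3 with mutant 2 gave 0.401 and control 2 with mutant 3 gave 0.234, while replicate 1 gave values below 0 with the others, so the correlations set replicate 1 apart and do not separate replicates 2 and 3. Alternatives were another pseudocount (0.1), 2 scalings, 2 filters, no trend, a replicate block, a covariate of Y-linked expression, a term for replicate 1, replicates 2 and 3 alone, and leaving out each sample. Positions, transcript composition and 3′ sequence came from the GENCODE annotation of GRCm38, which held 69 of the 71 entries; the second *Efna5* entry and *Ntn3* were not found there. Named with all sample values were, per role, the member with the highest mean and the tested member with the smallest p, those with an unadjusted p under 0.05 or with groups that did not overlap, and the 5 with the largest differences; genes named from fits other than that over all samples were chosen after their values were seen. Python 3.11.15 with scipy 1.17.1 and pandas 2.3.3 was used for the rest.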

Additional observations from a re-analysis of the deposited data

How the results depend on the processing

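No guidance gene passed an adjusted p of 0.05 in limma under any of the 16 alternatives. The number with an unadjusted p under 0.05, 1 over all samples, was 0 with median ratio scaling and 0 with the Y-linked covariate, 4 with the replicate block, 4 with the term for replicate 1 (*Sema3c*, *Sema4a*, *Dcc* and *Robo2*) and 11 for replicates 2 and 3 only, where 1.71%, 1.75%, 6.0%, 6.07% and 11.0% of all genes passed. With no filter the 1 guidance gene was *Plxnb3* in place of *Sema4a*, and 2.87% of all genes passed. Leaving out 1 sample gave 0 to 7 (7 without control 1, against 6.45% of all genes, 2 without mutant 1, against 4.1%, and 0 without each of the other 4, against 0.775% to 1.32%). The number of guidance genes whose groups did not overlap, 1 over all samples, was 3 with median ratio scaling (*Dcc*, *Ephb2* and *Sema4a*), 2 with quantile normalization, 2 with no filter and 27 for replicates 2 and 3 only, beside 5.24%, 5.47%, 6.34% and 45.0% of all genes. It was 1 to 18 when 1 sample was left out, with 18 without control 1 (24.4% of all genes), 9 without mutant 1 (24.3%), 6 without control 3 (10.1%), 4 without mutant 2 (9.46%), 2 without mutant 3 (9.96%) and 1 without control 2 (8.41%). The pseudocount, block, trend and covariate settings give no separate count of this kind. *Rbfox2* kept its direction throughout. Its difference was -0.75 with the term for replicate 1 (limma, adjusted p = 0.0296) and -0.82 for replicates 2 and 3 only (limma, adjusted p = 0.0328), both past a threshold that it missed over all samples (limma, adjusted p = 0.138). Beyond the 3 further guidance genes given in the report, *Sema3c*, *Plxna3* and *Robo2*, the replicate block changed no call of a guidance gene. The median difference of the tested guidance genes lay between -0.064 and 0.0011 and moved by less than the SD of the group medians. Of the 24 named genes that were not called, 12 kept 1 sign in all alternatives, and of their 384 values 1, *Ntn1* at -0.19 with the Y-linked covariate, moved by more than the spread of the samples. Except where a setting's own construction shows it, the cause of these shifts was not tested. Read depth is unknown, so what it limits at low FPKM cannot be given.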
